A study of Mus musculus with 15 samples.

Results

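The step from common dendritic cell progenitors (CDPs) to Zbtb46-GFP+ c-Kit-intermediate cells was followed in mice without Batf3. The samples were chosen by their titles: the Batf3 KO CDP and Batf3 KO Zbtb46-GFP+ groups, which hold 5 of the 15 arrays of the series (2 CDP and 3 Zbtb46-GFP+). The Zbtb46-GFP+ array of replicate 1 had a scale of its own, with a median signal of 24.02 against 102.67 to 110.86 on the other 4, so those 4 gave the levels and the fits, of 12 arrays used in all. Cells of every group were sorted from mouse bone marrow by flow cytometry, and their total RNA was hybridised to Affymetrix gene arrays. The Batf3 KO cells came from Batf3 KO Zbtb46-GFP reporter mice. The comparison groups were WT cells from Zbtb46-GFP chimeric mice and Id2 KO cells from chimeras of the Id2 KO Zbtb46-GFP genotype, each with 2 CDP and 2 Zbtb46-GFP+ arrays in use. All groups carry the Zbtb46-GFP reporter, and the labels name no treatment of the mice. The labels used here give no age, and no word on whether arrays of a group came from separate mice, so p-values measure the spread between these arrays, which may be technical. For the chimeras they do not say which host cells remained.

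CDPs are bone marrow progenitors that give rise to plasmacytoid dendritic cells (pDCs) and to the classical subsets cDC1 and cDC2. The transcription factor Zbtb46 marks commitment to the classical lineage, and c-Kit, a stem cell factor receptor, falls as cells mature. Batf3 is an AP-1 factor that pairs with Jun proteins and acts with Irf8 at composite DNA elements. It is known for the cDC1 subset, which takes up dead cells and presents their antigens on MHC class I, and it is dispensable for most cDC2s, which rely on Irf4. Id2 restrains the E proteins that drive pDC fate.

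Values are log2 of the deposited linear signal, 1 probe set per gene, for 19920 genes. The step is the mean of Zbtb46-GFP+ arrays minus the mean of CDP arrays, tested with limma on the 12 arrays with Benjamini-Hochberg adjustment, and a gene is called at an adjusted p under 0.05. In bulk samples, fewer cells of a type and less RNA per cell cannot be told apart.

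Before the step itself, the arrays were checked against their labels. Batf3 signal stood at 6.96 and 7.25 on the Batf3 KO CDP arrays and at 6.89 and 7.32 on the Zbtb46-GFP+ arrays. In WT it was 7.12 and 7.15 in CDPs and 9.99 and 9.85 in Zbtb46-GFP+ cells. The knockout arrays of both stages thus lay at the WT CDP level, and the 2.79 log2 rise of WT was absent (difference of the steps -2.79 ± 0.26 SE, limma adjusted p = 9.46e-04). Whether the Batf3 probes lie in the deleted part is not known here. The CDP arrays held the transcripts that define the progenitor, with Flt3 at 11.58 and 11.21, Csf1r at 11.39 and 11.20, and Cd34 at 11.52 and 11.46. The Zbtb46 transcript itself did not separate the Batf3 KO stages, at 5.68 and 6.02 in CDPs against 6.01 and 6.0 in cells sorted as Zbtb46-GFP+ (step 0.15 ± 0.14, adjusted p = 0.739), while it rose by 1.08 in WT. The difference of these steps, -0.93 with a 95% interval of -1.38 to -0.48, did not pass the adjustment (adjusted p = 0.332). All 4 Batf3 KO arrays in use had low Xist (5.18 to 5.71) and clear Uty (7.82 to 8.21), and all 4 WT arrays had high Xist (11.93 to 12.42). Differences between Batf3 KO and WT, of levels and of the steps alike, therefore cannot be told apart from sex or from host type, whereas the step within Batf3 KO compares arrays of 1 such pattern, and 0 of 4 measured sex-linked genes were called in it. The Batf3 KO array left out had Xist at 11.02, unlike the other 4 of its genotype.

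Of the 19920 genes, 1430 (7.18%) were called in the Batf3 KO step, 771 (3.87%) higher and 659 (3.31%) lower in Zbtb46-GFP+ cells. In WT 2211 genes (11.1%) were called, 940 (4.72%) higher and 1271 (6.38%) lower. The counts called in both were 627 rising genes, which make up 66.7% of the WT list and 81.3% of the Batf3 KO list, and 588 falling genes, which make up 46.3% and 89.2%. Not 1 gene was called in opposite directions. Of the genes called in WT, 927 of 940 rising and 1265 of 1271 falling genes had the same sign without Batf3. Differences of the steps were called for 19 genes (0.0954%), 16 lower (0.0803%) and 3 higher (0.0151%) without Batf3, and 383 genes had an unadjusted p under 0.05. A miss of that test does not show equal steps, since the median standard error of a difference was 0.24 log2. A step was therefore counted as kept where a gene was called in the same direction in both genotypes and the 95% interval of the difference lay within 1 log2 unit of 0. By that measure 395 rises (42.0% of those in WT) and 474 falls (37.3%) were kept. The margin is wide beside the median WT step of the called genes, 1.09 for rises and -0.84 for falls. Kept therefore means called in both genotypes within that margin, and a smaller step can meet it. Large steps with wide intervals can miss it.

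The counts depended on single arrays. Without 1 Batf3 KO array the count called in the Batf3 KO step was 642 (CDP replicate 1), 760 (CDP replicate 2), 827 (Zbtb46-GFP+ replicate 2) and 746 (Zbtb46-GFP+ replicate 3), and the kept genes, 869 in all, were 304, 423, 504 and 326, and 542 without WT CDP replicate 1. The falls gave way more than the rises in part of these fits: 461 genes were higher and 181 lower without CDP replicate 1, 530 and 216 without Zbtb46-GFP+ replicate 3, 399 and 361 without CDP replicate 2, and 400 and 427 without Zbtb46-GFP+ replicate 2. The WT split turned without WT CDP replicate 1 and also without WT Zbtb46-GFP+ replicate 2. Without WT CDP replicate 2 or WT Zbtb46-GFP+ replicate 3 more genes were still lower than higher. A block for the replicate number on the 12 arrays turned it too, with 958 higher and 724 lower. The shares of WT falls given above thus depend on which arrays are used and on the model, not on 1 array alone. Within each genotype and stage 1 array had a higher 75th percentile of signal than the other (402.4 and 385.4 against 353.6 and 335.4 in Batf3 KO). With this set as a block 3486 genes were called, 1496 higher and 1990 lower, so that the split turned. Centring each array on its 75th percentile gave 861 higher and 510 lower in Batf3 KO and turned the split in WT to 1158 higher and 861 lower. Of the 103 genes called in the Batf3 KO step that the naming rule picked, 19 lost their call when some single array was left out: Axl, Camp, Car2, Cd200r1, Clec4a2, Clec9a, Dkc1, Fcrla, Ifngr1, Itgb7, Junb, Lcn2, Mpo, Nkg7, Nop58, Orc1, S100a8, Vpreb1 and Wdr12.

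**Figure D1:**
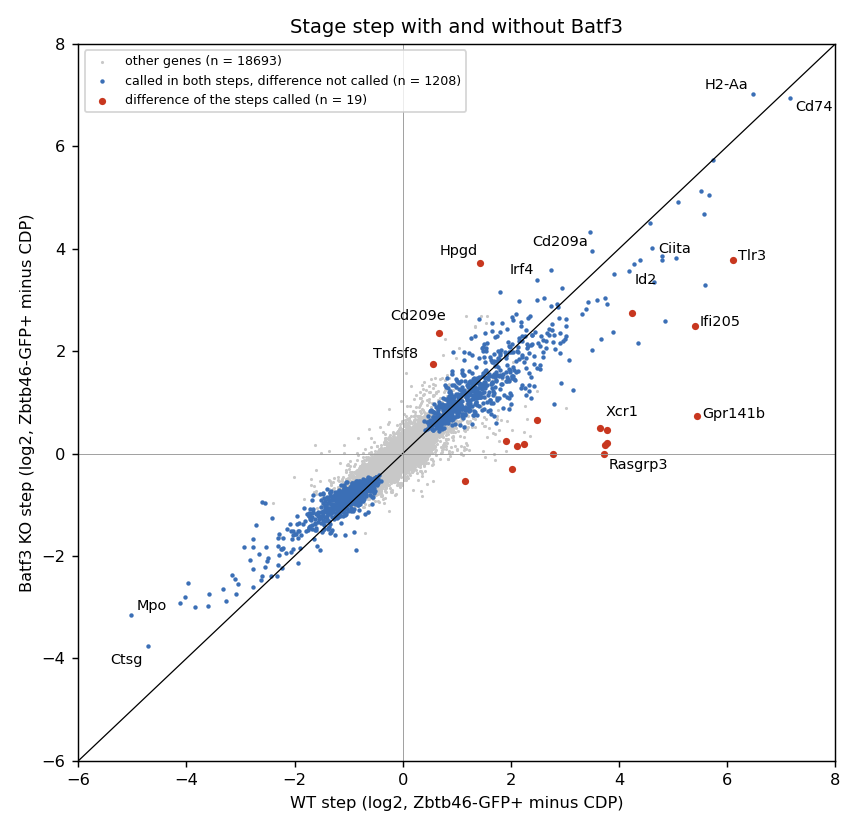
The stage step (Zbtb46-GFP+ minus CDP) in WT (horizontal axis, log2) against the same step in Batf3 KO (vertical axis, log2), 1 point per gene, with the line of equal steps. Blue points are genes called in both steps, and the 19 red points are genes whose steps differed, 16 of them below the line.

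MHC class II genes carried the highest rises of the Batf3 KO step. These genes encode the chains that present antigen to CD4 T cells, together with the factors that load them. H2-Aa, the alpha chain of I-A, went from 6.55 and 6.35 on the CDP arrays to 13.35 and 13.61 on the Zbtb46-GFP+ arrays, a 131-fold rise (7.03 ± 0.30 log2, limma adjusted p = 2.80e-07). Cd74, the invariant chain, went from 6.02 and 6.46 to 13.03 and 13.33, a 123-fold rise. H2-Eb1, the beta chain of I-E, went from 7.22 and 7.26 to 13.05 and 12.92, and H2-Ab1, the beta chain of I-A, from 8.35 and 8.59 to 13.56 and 13.65. No Zbtb46-GFP+ value of these 4 genes came near a CDP value. Ciita, the coactivator that switches the class II genes on, went from 6.05 and 6.15 to 10.07 and 10.18 (4.02 ± 0.18 log2, limma adjusted p = 3.67e-07). The WT steps were 6.48 for H2-Aa, 7.17 for Cd74, 5.73 for H2-Eb1, 5.52 for H2-Ab1 and 4.60 for Ciita.

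Of 15 measured genes of the class II list, 10 rose and 0 fell without Batf3, against 11 and 1 in WT. Over all genes 3.87% were called higher and 3.31% lower without Batf3, and 4.72% and 6.38% in WT. Counts of the later lists are read beside the same shares. The median step of the class II list was 1.60 without Batf3 and 1.73 in WT, beside 0.01 and 0.03 over all genes. All 10 were called higher in WT as well, and 6 met the measure for a kept step: H2-Ab1, H2-Eb1, Cd74, H2-DMa, Ctss and Ifi30. H2-DMa, part of the peptide editor, differed by 0.86 in Batf3 KO and 0.89 in WT. Ifi30, a lysosomal reductase of antigen processing, differed by 1.60 and 1.73, and Ctss, the protease that trims the invariant chain, by 0.90 and 0.87. H2-Aa and Ciita fell outside the measure through their intervals, -0.38 to 1.48 and -1.13 to -0.03.

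The promoters of a kept and of an altered gene are set side by side here, because Batf3 binds DNA and the sequences show which known elements the windows hold. Promoter windows of RefSeq (GRCm38.p6) reach from 250 bases before to 50 bases after the start site, and the 250 upstream bases are printed 5′ to 3′ on the gene's strand, with motif matches in capitals. H2-Eb1 stands for the kept class II rises, H2-Aa for the largest class II rise (outside the measure for a kept step), Gpr141b for the rises lost without Batf3 and Cd209e for the rises that were larger without it.
H2-Aa (chr17:34287824-34288073, - strand): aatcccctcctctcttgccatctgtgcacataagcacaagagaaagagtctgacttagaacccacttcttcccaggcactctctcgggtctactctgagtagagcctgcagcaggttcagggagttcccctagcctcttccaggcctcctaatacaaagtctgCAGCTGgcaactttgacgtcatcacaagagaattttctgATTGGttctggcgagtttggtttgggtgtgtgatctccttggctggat
H2-Eb1 (chr17:34305617-34305866, + strand): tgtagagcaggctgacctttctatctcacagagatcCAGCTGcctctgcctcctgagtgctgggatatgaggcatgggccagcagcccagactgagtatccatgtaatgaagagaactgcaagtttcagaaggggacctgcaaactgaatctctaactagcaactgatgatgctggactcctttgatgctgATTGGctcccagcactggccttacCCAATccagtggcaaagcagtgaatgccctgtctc
Gpr141b (chr13:19732952-19733201, - strand): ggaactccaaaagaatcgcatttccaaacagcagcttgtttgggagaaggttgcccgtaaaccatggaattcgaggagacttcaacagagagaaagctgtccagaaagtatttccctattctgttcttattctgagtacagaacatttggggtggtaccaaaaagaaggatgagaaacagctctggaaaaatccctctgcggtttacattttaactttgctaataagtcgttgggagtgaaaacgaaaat
Cd209e (chr8:3854287-3854536, - strand): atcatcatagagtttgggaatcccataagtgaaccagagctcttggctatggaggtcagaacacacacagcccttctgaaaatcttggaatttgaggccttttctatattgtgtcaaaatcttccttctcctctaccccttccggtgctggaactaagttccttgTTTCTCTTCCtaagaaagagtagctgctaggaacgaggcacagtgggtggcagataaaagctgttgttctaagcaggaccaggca

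Capitals in H2-Aa mark CAGCTG, 1 form of the E box that E proteins read, at position -87 from the start site, and ATTGG, the reverse of the CCAAT box, at position -48. In H2-Eb1 they mark CAGCTG at -214, ATTGG at -59 and CCAAT at -35. The CCAAT box is the core of the Y box of class II promoters, read by NF-Y. No motif searched was found in the Gpr141b window. Cd209e holds TTTCTCTTCC at -85, a reverse-strand match of a composite element of Ets factors with Irf4 or Irf8. Both strands were searched for TGANTCA (the AP-1 element), the same letters directly after GAAA or 4 bases after TTTC (AP-1 elements with an IRF part, which overlap with the plain AP-1 element), GGAA followed after any 2 bases by GAAA (the Ets and IRF composite), CCAAT and the E box given above. The plain AP-1 element was in 1323 of 19177 promoter windows of measured genes (6.90%), in 36 of 471 windows of the kept rising genes (7.64%) and in 0 of 18 windows of the genes whose step was smaller. The Ets and IRF composite was in 2.50% of all windows and 4.03% of those of kept rising genes. CCAAT was in 37.4% and 29.3%, and the E box in 16.3% and 20.8%. A match is a description of letters, and a window without one says nothing about binding of the factor.

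Other large rises of the Batf3 KO step ran in the same direction in WT. Plbd1, a lysosomal phospholipase, went from 8.21 and 7.42 to 12.79 and 12.95 (5.05 log2, WT 5.66). Serpinb10, a serine protease inhibitor, went from 6.49 and 7.07 to 11.52 and 11.85 (4.90, WT 5.09). Slamf7, a receptor of the SLAM family, went from 6.17 and 6.02 to 10.82 and 10.75 (4.69, WT 5.57), and Slc46a3, a lysosomal transporter, from 7.44 and 6.97 to 11.72 and 11.70 (4.50, WT 4.58). Scimp, an adaptor of class II and Toll-like receptor signalling, rose by 4.33 (WT 3.46). Cd226, an activating receptor that binds nectin-like ligands, rose by 3.86 (WT 4.80), Samd9l by 3.82 (WT 5.06) and Adgre5, an adhesion receptor known as CD97, by 3.79 (WT 4.79). The rule that named these 8 genes required that the arrays of the 2 Batf3 KO stages did not overlap, so this adds no support. Of all genes 44.8% met that condition. For each of the 8 genes the difference from WT was not called.

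Toll-like receptors and costimulatory genes rose along with antigen presentation. Of 15 measured Toll-like receptors and adaptors, 10 rose and 0 fell without Batf3, against 11 and 0 in WT, with medians of 0.98 and 0.93. The count of 10 was lower in every fit that left out 1 Batf3 KO array. The 7 kept steps were those of Tlr2, Tlr4, Tlr9, Tlr12, Myd88, Ticam1 and Cd180. Tlr4, the receptor for lipopolysaccharide, went from 5.47 and 5.50 to 7.50 and 7.11 (1.82 log2, WT 1.69). Tlr13, which reads bacterial ribosomal RNA, went from 5.98 and 5.59 to 9.04 and 8.36 (2.92, WT 3.79), and Tlr1 rose by 1.79 (WT 1.53). Tlr3, the receptor for double-stranded RNA, rose from 5.68 and 5.43 to 9.21 and 9.48 (3.79), but in WT it reached 11.56 and 11.59 (6.11), and it was the 1 receptor of the list whose difference was called. Of 14 costimulatory and checkpoint genes, 8 rose and 0 fell in each genotype, 6 of them in both. Cd86, a ligand of CD28, rose by 2.23 (WT 3.67), Btla by 1.96 (WT 2.91) and Cd80 by 1.43, from 6.44 and 6.97 to 8.05 and 8.23. The WT step of Cd80 was 0.79 (adjusted p = 0.0564). Cd40 (0.95, WT 0.75) and Icosl (1.40, WT 1.53) were kept. The costimulatory count was 4 without either Batf3 KO CDP array or Zbtb46-GFP+ replicate 2.

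Genes that mark cDC2s rose without Batf3. Of 20 cDC2 markers, 11 rose and 1 fell, against 12 and 1 in WT, and the median step was 1.12 without Batf3 and 0.76 in WT. This list too was chosen with earlier results of these data known, so its counts are not independent evidence. Cd209a, a C-type lectin related to human DC-SIGN, went from 8.59 and 8.46 to 12.56 and 12.42 (3.96 ± 0.34 log2, WT 3.50). Irf4, the transcription factor that cDC2s rely on, went from 5.59 and 5.66 to 9.28 and 8.76, a 10.5-fold rise (3.39 ± 0.33 log2, limma adjusted p = 1.53e-04). In WT Irf4 reached 7.41 and 8.59 (2.48), and the difference, 0.92 with an interval of -0.11 to 1.95, was not called. Clec4b1, another lectin, rose by 3.36 (WT 4.64), and Itgam, the CD11b chain of an integrin, by 1.99 (WT 1.14). Cd209d went from 6.30 and 5.94 to 9.22 and 8.38, a rise of 2.68, while its WT step was 1.17 (adjusted p = 0.0546). The kept cDC2 steps were those of Cd4, Notch2, Tbx21 and S100a4. The member that fell was Clec12a. Probe sets of the near-identical Cd209 genes may share signal, so their separate values are uncertain.

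A group of 3 genes rose more without Batf3 than with it. Hpgd, the enzyme that inactivates prostaglandins, went from 7.02 and 6.97 to 10.82 and 10.63 without Batf3, a 13.3-fold rise. In WT it went from 6.23 and 6.74 to 7.89 and 7.95, and the steps differed by 2.29 ± 0.35 log2 (limma adjusted p = 0.0479). Cd209e went from 5.90 and 6.15 to 8.59 and 8.18, and in WT from 5.81 and 6.02 to 6.64 and 6.53 (difference 1.69 ± 0.24, limma adjusted p = 0.0340). Tnfsf8, the ligand of CD30, went from 5.95 and 5.92 to 7.72 and 7.66, and in WT from 6.01 and 6.0 to 6.44 and 6.68 (difference 1.20 ± 0.18, limma adjusted p = 0.0405). Both Batf3 KO Zbtb46-GFP+ arrays lay above both WT Zbtb46-GFP+ arrays for each of the 3 genes. The genes were chosen by the difference of the steps on these same arrays, so this is no separate support. Each of these calls was lost when some single array was left out and under some scaling of the arrays.

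**Figure D2:**
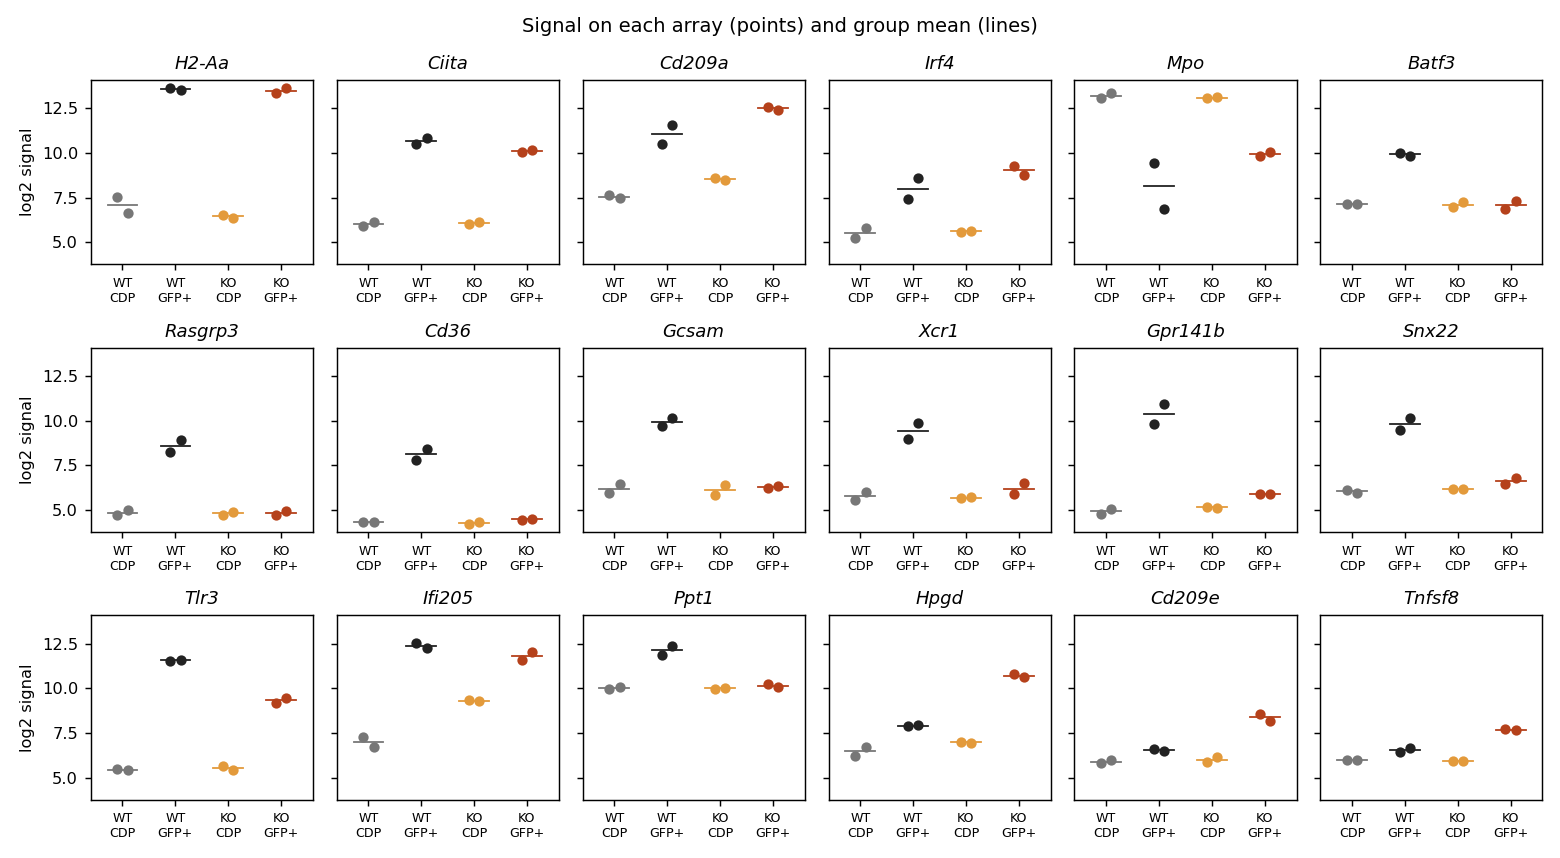
Log2 signal on each array (points) and the group mean (lines) for 18 genes, in WT and Batf3 KO (KO) CDPs and Zbtb46-GFP+ cells (GFP+). The upper row holds steps of the same direction in both genotypes, and Batf3. The next panels hold genes whose rise was absent or smaller in Batf3 KO than in WT. The last 3 panels (Hpgd, Cd209e, Tnfsf8) hold genes higher in Batf3 KO Zbtb46-GFP+ cells.

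Of the 16 genes whose step was smaller without Batf3, 10 were on the list of cDC1 markers. Of 20 measured cDC1 markers, 7 rose and 0 fell without Batf3, against 17 and 0 in WT, and the median step was 0.54 against 2.92. The count of 7 was lower in every fit that left out 1 Batf3 KO array. For 10 of the 20 the steps differed, and 0 met the measure for kept. The list includes genes named from earlier results of these arrays, so its count is not independent evidence of its direction. Rasgrp3, a Ras activator, had 4.74 and 4.92 in CDPs and 4.70 and 4.93 in Zbtb46-GFP+ cells, whereas in WT it went from 4.72 and 4.98 to 8.23 and 8.91 (difference -3.73 ± 0.31 log2, limma adjusted p = 9.41e-04). Gpr141b, an orphan G-protein-coupled receptor, had 5.20 and 5.10 in CDPs and 5.90 and 5.88 in Zbtb46-GFP+ cells, against 9.81 and 10.94 in WT Zbtb46-GFP+ cells (difference -4.71 ± 0.43, limma adjusted p = 9.46e-04). Xcr1, the chemokine receptor that defines cDC1s, had 5.66 and 5.75, then 5.88 and 6.51, against 8.99 and 9.86 in WT (difference -3.16 ± 0.42, limma adjusted p = 0.0211). The Batf3 KO Zbtb46-GFP+ arrays lay below the WT ones for all 3 genes, which were chosen by the difference on these same arrays. The Batf3 KO steps of the 3 genes, -0.01, 0.74 and 0.49, were not called.

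Cd36, a scavenger receptor for lipids and dying cells, had 4.25 and 4.35 in Batf3 KO CDPs and 4.47 and 4.53 in Zbtb46-GFP+ cells, against 7.78 and 8.44 in WT (difference -3.58). Gcsam, a signalling protein of germinal centre B cells, had 5.87 and 6.38, then 6.24 and 6.34, against 9.70 and 10.14 in WT (difference -3.57). Snx22, a sorting nexin, had 6.20 and 6.18, then 6.47 and 6.82, against 9.50 and 10.17 in WT (difference -3.33). Ppt1, a lysosomal thioesterase, stayed between 9.98 and 10.24 on the 4 Batf3 KO arrays and reached 11.89 and 12.37 in WT (difference -1.97). The limma adjusted p-values of these differences ran from 9.41e-04 to 0.00647. BC028528 had 8.15 and 8.08, then 8.06 and 7.56, against 9.80 and 9.87 in WT (difference -2.32, adjusted p = 0.0211).

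Some cDC1 genes rose without Batf3 but by less than in WT. Tlr3, described above, differed by -2.32 ± 0.19 log2 (limma adjusted p = 9.41e-04). Fcrla, an intracellular Fc receptor-like protein, went from 6.19 and 6.30 to 7.04 and 6.77 (0.66, adjusted p = 0.0447), and in WT to 8.57 and 9.04 (difference -1.82). Its own rise lost its call under some scaling, with single arrays left out and with the replicate block. Ifi205, an interferon-inducible gene of the p200 family, was already at 9.37 and 9.28 in Batf3 KO CDPs, against 7.28 and 6.71 in WT CDPs, and reached 11.60 and 12.04 against 12.53 and 12.26. Its smaller step (2.49 against 5.40) thus went with a higher start, and near-identical p200 genes may share its probes. Naaa, an acid amidase, rose by 2.59 and in WT by 4.84, and Rab7b, a GTPase of endosome traffic, rose by 1.38 against 2.92. Clec9a, the receptor for filaments of dead cells, went from 9.83 and 9.99 to 10.49 and 10.52 (0.60, adjusted p = 0.0257), against a WT rise of 1.73. Its Batf3 KO call was lost without any 1 of the 4 Batf3 KO arrays, with 75th-percentile centring and with the replicate block. The differences of Naaa, Rab7b and Clec9a were not called (limma adjusted p = 0.523, 0.210 and 0.121).

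The remaining called differences lay outside the rule for naming genes and were chosen after their values were seen. Fgd6, an exchange factor for Cdc42, had a step of 0.19 against 2.25 in WT, and Gatm, an enzyme of creatine synthesis, -0.54 (adjusted p = 0.0810) against 1.15. Tubb2a, a beta-tubulin, had 0.25 against 1.92, and Shtn1, a protein of axon outgrowth, rose by 2.75 against 4.24. All 19 genes with a called difference were called higher in the WT step. Of these 19 calls, 7 held with each array left out in turn: Gpr141b, Rasgrp3, Cd36, Gcsam, Snx22, Batf3 and Tlr3. The count of differences ran from 7 (without Batf3 KO CDP replicate 2) to 41 (without WT Zbtb46-GFP+ replicate 2). It was 8 without WT CDP replicate 2 or Batf3 KO CDP replicate 1, 10 without WT Zbtb46-GFP+ replicate 3 or Batf3 KO Zbtb46-GFP+ replicate 2, and 11 without WT CDP replicate 1 or Batf3 KO Zbtb46-GFP+ replicate 3. Centring each array on its median or on its 75th percentile gave 12.

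**Figure D3:**
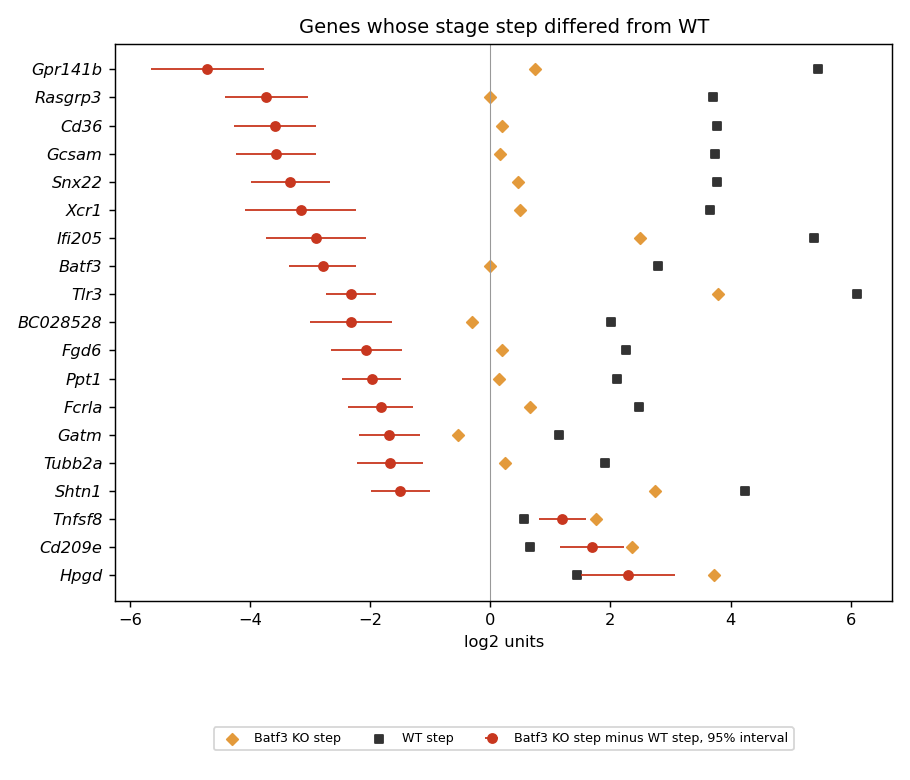
The step from CDP to Zbtb46-GFP+ cells in Batf3 KO (diamonds) and WT (squares), and the difference of the steps with its 95% interval (circles and bars), in log2 units, for the 19 genes with a called difference. From Gpr141b to Shtn1 the difference lies below 0, and for Tnfsf8, Cd209e and Hpgd above 0.

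The regulators of dendritic cell fate were mixed. Id2 went from 7.76 and 7.83 to 11.14 and 11.56 without Batf3, an 11.8-fold rise (3.56 ± 0.32 log2, limma adjusted p = 8.07e-05), and its WT rise was 4.19. Nfil3, a bZIP repressor, went from 10.01 and 9.63 to 8.19 and 7.55, a step of -1.95 against -2.16 in WT. Zeb2, a repressor tied to pDC and monocyte fate, had 9.96 and 9.97 in CDPs and 9.54 and 8.91 in Zbtb46-GFP+ cells, a step of -0.74 that was not called (adjusted p = 0.180), against -1.64 in WT. Irf8, the factor with which Batf3 acts, stood at 13.10 and 12.88 in CDPs and 12.82 and 12.83 in Zbtb46-GFP+ cells, a step of -0.16 (interval of the difference from WT -0.72 to 0.19). Bcl6, a repressor, rose by 2.10 (WT 2.32), Relb, an NF-kB subunit, by 1.40 (WT 1.23) and Notch2 by 1.21 (WT 1.25). The steps of Id3 (0.20) and of the E protein gene Tcf4 (-0.17) were not called. Of 27 regulators in the list, 5 rose and 2 fell without Batf3, against 9 and 5 in WT. Of 16 measured AP-1 and related factors 2 rose (Junb by 1.09 and Atf3 by 1.30) and 1, Nfil3, fell. Without any 1 of the 4 Batf3 KO arrays, 1 AP-1 factor was called higher and 1 fate regulator lower.

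Among growth factor receptors, 5 of 15 rose and 1 fell, against 4 and 3 in WT. Kit rose from 9.92 and 9.78 to 11.14 and 11.35 in cells gated as c-Kit intermediate (1.39, WT 1.50), and Csf2ra, a chain of the GM-CSF receptor, from 9.51 and 9.46 to 10.55 and 10.83 (1.21, WT 1.22). Both met the measure for kept. Csf1r, the M-CSF receptor of monocytes and macrophages, fell from 11.39 and 11.20 to 10.12 and 9.47 (-1.50, WT -2.03). Flt3, whose ligand drives dendritic cell development, differed by -0.04 and was not called. Chemokine and migration receptors had 3 rises and 1 fall among 15 measured genes, against 4 and 2 in WT: Cxcr3 rose by 2.96, Ccr9 by 2.29 and Ccr2 by 1.14, and S1pr3 fell (-1.83). The rising growth factor receptors were 3 without Batf3 KO CDP replicate 2 and 2 without Zbtb46-GFP+ replicate 2.

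Many genes of stem cells and early progenitors fell in both genotypes. Without Batf3 14 of 25 fell and 0 rose, against 18 and 0 in WT, with medians of -1.06 and -1.35. All 14 were called lower in WT too. The list was drawn up with earlier results of these data known, so its counts are not independent evidence of direction. Igfbp4, an IGF-binding protein, went from 11.01 and 10.95 to 8.11 and 7.86 (-2.99 ± 0.12 log2, limma adjusted p = 2.50e-07, WT -3.84). Cd93, a surface marker of progenitors, went from 11.65 and 11.52 to 9.02 and 8.55 (-2.81, WT -4.03). Cdk6, a cyclin-dependent kinase, went from 11.68 and 11.59 to 9.36 and 8.97 (-2.47, WT -2.62), and Cd34 from 11.52 and 11.46 to 9.08 and 9.12 (-2.39, WT -2.44). Both met the measure for kept, as did Hoxa7, Hoxa9 and Erg. The adhesion receptors Adgrg1 (-2.88) and Adgrl4 (-2.74) were among the 15 falls of the largest size, as were Adgrg3 (-2.97), Drc7 (-2.75), Rab44 (-2.65), Il12a (-2.61) and the TNF receptor Cd27 (-2.45).

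Several azurophil granule genes of myeloid precursors fell as well. Mpo, the myeloperoxidase of azurophil granules, went from 13.04 and 13.11 to 9.80 and 10.05 (-3.15 ± 0.58 log2, limma adjusted p = 0.00715). In WT its Zbtb46-GFP+ arrays stood apart from each other, at 9.46 and 6.87. Ctsg went from 11.54 and 11.67 to 7.68 and 8.0 (-3.76, WT -4.71), and Prtn3 from 12.47 and 12.57 to 9.94 and 10.04 (-2.53, WT -3.97). Of 12 genes of this list 5 fell and 0 rose without Batf3, against 8 and 1 in WT. Elane, neutrophil elastase, was among those called in WT alone, with steps of -0.46 without Batf3 and -2.02 in WT, a difference that was not called. Without Batf3 KO CDP replicate 1 the count of falls was 3. F13a1, a coagulation factor of monocytes, went from 11.39 and 11.40 to 8.74 and 8.21 (-2.92, WT -4.13).

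DNA replication genes fell in both genotypes. Of 20 measured, 11 fell and 0 rose without Batf3, against 16 and 0 in WT, with medians of -0.72 and -0.89, and 9 falls were kept. Mcm3, a subunit of the replicative helicase, went from 11.25 and 11.04 to 10.19 and 10.20 (-0.95, WT -1.12), Mcm4 by -1.03 (WT -1.07) and Cdt1, a licensing factor, by -1.07 (WT -1.20). Among 19 cell division genes 1 fell without Batf3, the cyclin Ccnd2 (-1.09), against 4 in WT. Of all genes 3.31% fell without Batf3 and 6.38% in WT, so 1 of 19 says little about that list. Ribosome biogenesis genes had 8 falls and 0 rises of 20, against 10 and 0 in WT, and 6 were kept, among them Gnl3 (-1.07), Wdr12 (-0.83) and Dkc1 (-0.79). Replication genes called lower numbered 5 without CDP replicate 1 or Zbtb46-GFP+ replicate 3 of Batf3 KO, 7 without CDP replicate 2 and 11 without Zbtb46-GFP+ replicate 2. For ribosome biogenesis the counts were 1, 1, 3 and 5 in that order of arrays.

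A further question was whether falls were smaller without Batf3. Genes called lower in WT had a median step of -0.84 there and -0.64 without Batf3, but choosing genes by the WT step favours a larger WT value. Chosen instead by the Id2 KO step, which shares no array with either, the 597 falling genes had medians of -0.93 in WT and -0.73 without Batf3, and 470 (78.7%) fell less without Batf3. The 767 rising genes had medians of 0.94 and 0.88, and 411 (53.6%) rose less. The genes share the same arrays, so these shares describe the arrays and carry no test. The same share over all genes was not counted, so the 78.7% is not shown to be particular to falling genes. Centring each array on its 75th percentile moved the median of all genes by 0.16 in the WT step and 0.09 in the Batf3 KO step, and turned the WT split from 940 higher and 1271 lower to 1158 and 861. In the Batf3 KO step that centring gave 861 higher and 510 lower.

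**Figure D4:**
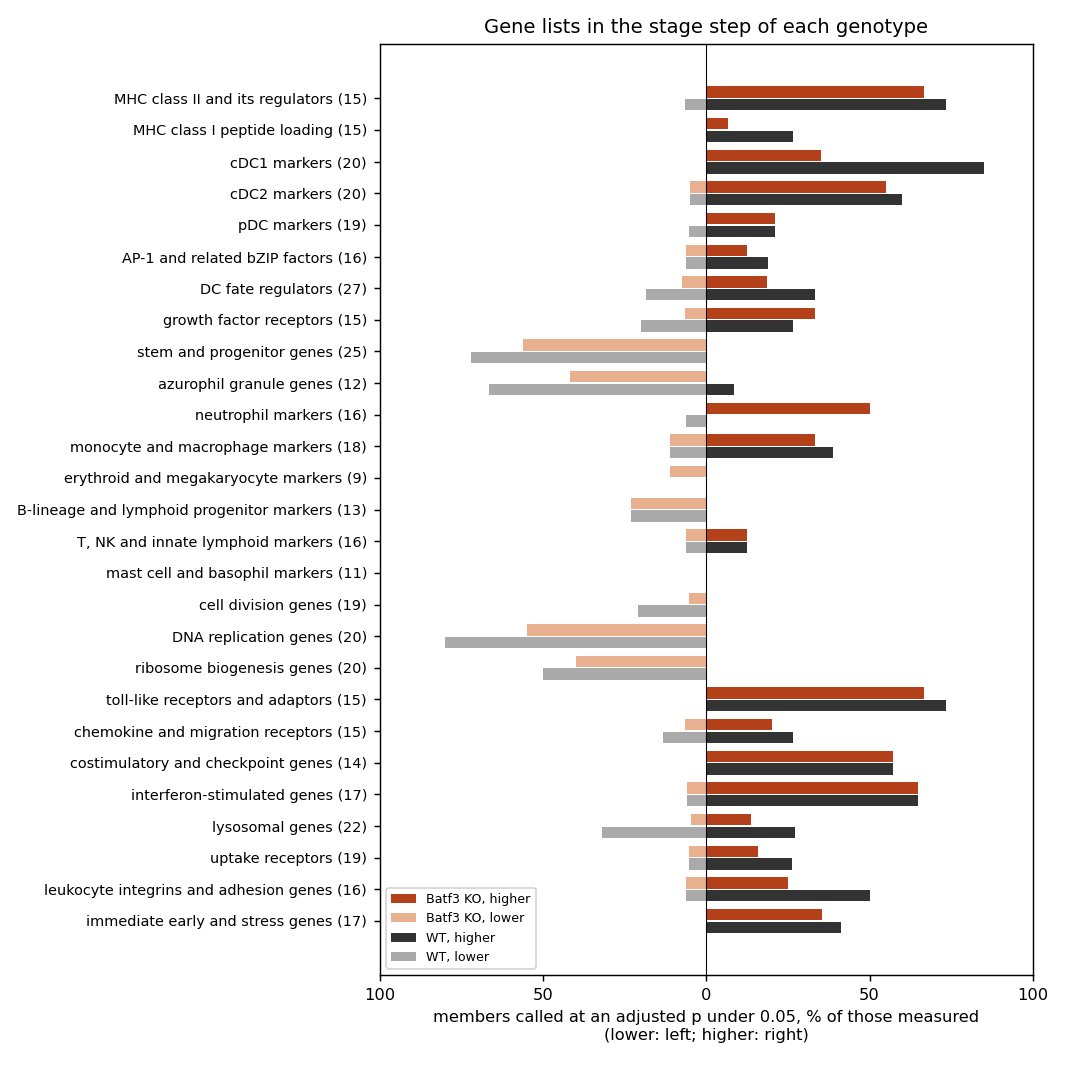
Share of each list's measured genes (number in brackets) called higher (bars to the right) or lower (bars to the left) in the step from CDP to Zbtb46-GFP+ cells, in percent, for Batf3 KO and WT. The class II, Toll-like receptor, stem and progenitor, and DNA replication lists point the same way in both genotypes, and the cDC1 bar is shorter in Batf3 KO (7 of 20 against 17 of 20).

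Lists that overlap with the above added the following. Of 17 measured interferon-stimulated genes 11 rose and 1 fell in each genotype, with medians of 1.32 without Batf3 and 1.00 in WT, and 1 of the rises (Mx1) was kept. Ifit3 went from 6.14 and 6.39 to 9.38 and 8.40 (2.63, WT 1.41), and Irf7, the factor that amplifies type I interferon, from 8.09 and 7.83 to 10.44 and 10.09 (2.31, WT 2.79). The rising count of this list was 7 without Batf3 KO CDP replicate 2. Of 15 MHC class I loading genes 1 rose without Batf3, Wdfy4, a protein needed for cross-presentation (1.09, WT 1.74), against 4 in WT. Over all genes 3.87% rose without Batf3 and 4.72% in WT, so 1 of 15 says little about that list. Of 16 leukocyte integrins and adhesion genes 4 rose and 1 fell, against 8 and 1 in WT. Itgb2 rose by 2.31 (WT 2.70), and Itga4 (1.30, WT 1.33) and Itgb7 (0.98, WT 1.20) were kept. The single fall was called in 0 of the fits that left out 1 Batf3 KO array, and Itgb7 lost its call without CDP replicate 2 or Zbtb46-GFP+ replicate 3. Itgax, the CD11c chain that marks dendritic cells, had 10.53 and 10.18, then 11.35 and 10.73, and was not called (0.68, adjusted p = 0.281), while it rose by 1.74 in WT.

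Of 22 lysosomal genes 3 rose and 1 fell, against 6 and 7 in WT. Over all genes 3.87% rose and 3.31% fell without Batf3, and 4.72% and 6.38% in WT. The single falls of this list and of the uptake receptors below therefore say little about the lists. Besides Plbd1 and Ctss, Ctsh rose by 0.88, and Ctsd fell (-1.16). Uptake receptors had 3 rises and 1 fall of 19, against 5 and 1 in WT, with Clec4a2 at 2.48, Axl at 0.80 and Itgb5 at -1.25. The rising uptake receptors were 0 without either Batf3 KO CDP array or Zbtb46-GFP+ replicate 2, and 2 without Zbtb46-GFP+ replicate 3. Immediate early and stress genes had 6 rises of 17 and 0 falls, against 7 and 0 in WT, and 5 were kept, among them Btg2 (1.49), Zfp36 (1.37) and Nr4a1 (1.11).

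Marker genes of other cell types were read in the same step. The neutrophil list had 8 rises and 0 falls of 16 without Batf3, against 0 and 1 in WT, with medians of 1.38 and 0.62 and 0 called differences. Rises of such genes were not particular to Batf3 KO. In the Id2 KO step Camp (2.33), Chil3 (2.31), Fcnb (2.08) and Cebpe (1.25) were called higher. Cxcr2 (0.78) was not called there, and Csf3r had a step of -0.63. In WT Camp had a step of 1.34 that was not called. S100a8, a calcium-binding protein abundant in neutrophils, went from 9.91 and 8.70 to 12.22 and 11.77 (2.69 ± 0.58 log2, limma adjusted p = 0.0166), and Camp, Ngp and Lcn2, of secondary granules, rose by 2.48, 2.49 and 2.70. The summed linear signal of the list was 8994 and 5292 on the Batf3 KO CDP arrays and 35993 and 24739 on the Zbtb46-GFP+ arrays, and in WT 13205 and 6696, then 19216 and 21595. Ly6g, the defining neutrophil surface marker, had 5.96 and 5.72, then 7.23 and 5.88, and was not called (adjusted p = 0.524). The list's rising count was 7, 2, 2 and 3 without Batf3 KO CDP replicates 1 and 2 and Zbtb46-GFP+ replicates 2 and 3. The part of other cells in the steps above was not tested. The monocyte and macrophage list had 6 rises and 2 falls of 18, against 7 and 2 in WT. Its rises include Adgre1, a macrophage surface marker, from 6.61 and 6.71 to 9.23 and 8.57 (2.24, WT 0.78 with adjusted p = 0.0603), and Cybb (2.06), Lgals3 (1.73) and Ccr2. The 2 falls of the list were F13a1 (-2.92) and Csf1r (-1.50). Cd14 (-0.24), Fcgr3 (-0.78) and Fcgr1 (0.69) were not called. The summed signal of the monocyte and macrophage list was 17178 and 18597 in CDPs and 21995 and 21518 in Zbtb46-GFP+ cells.

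The pDC list had 4 rises and 0 falls of 19 without Batf3, against 4 and 1 in WT: Ccr9, Irf7, Tlr9 (1.41) and Pld4 (0.83). Siglech, the receptor that defines pDCs, had 10.55 and 10.00 in CDPs and 10.42 and 9.23 in Zbtb46-GFP+ cells and was not called (adjusted p = 0.773). Of 13 B-lineage and lymphoid progenitor genes 3 fell in each genotype, without Batf3 Dntt (-2.14), Sox4 (-1.81) and Vpreb1 (-1.47). T, NK and innate lymphoid genes had 2 rises and 1 fall of 16 in each genotype (Klrd1 by 1.89, Tbx21 by 0.97 and Nkg7 by -0.97). Of 9 erythroid and megakaryocyte genes Car2 fell (-0.45), and of 11 mast cell and basophil genes 0 were called. Over all genes 3.87% rose and 3.31% fell without Batf3, so counts of 1 or 2 in these lists say little about them. Car2 lost its call without any 1 of the 4 Batf3 KO arrays, and Nkg7 without any of them except Zbtb46-GFP+ replicate 3.

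The step without Batf3 was also compared with that without Id2. The Id2 KO cells came from chimeras and the Batf3 KO cells from reporter mice. Differences between these steps therefore cannot be told apart from host type. In Id2 KO 1364 genes (6.85%) were called, 767 (3.85%) higher and 597 (3.00%) lower, and the steps of the 2 knockouts differed for 9 genes (0.0452%), 6 higher (0.0301%) and 3 lower (0.0151%) without Batf3. Tlr3 rose more without Batf3 than without Id2, where it went from 5.60 and 5.56 to 7.77 and 7.82 (difference 1.58, limma adjusted p = 0.0213). Tnfsf8 differed by 1.61, with an Id2 KO step of 0.15, and Fcrla by -2.11, since it rose by 2.77 without Id2. The other 6 were chosen after their values were seen. Ptgdr2, a prostaglandin receptor, Tbxas1, thromboxane synthase, and Ptpn22, a phosphatase, rose by 1.97, 1.91 and 1.23 without Batf3 against steps of 0.15, 0.34 and -0.13 without Id2. Itga1, an integrin chain, rose by 0.84 without Batf3 and fell without Id2 (-0.98). Cdh1, E-cadherin, and Grifin had steps of 0.35 and 0.27 that were not called without Batf3 and rose by 2.63 and 1.76 without Id2. The count of 9 was 0 without either Batf3 KO CDP array, without Batf3 KO Zbtb46-GFP+ replicate 3 or without either Id2 KO Zbtb46-GFP+ array. It was 5 without Batf3 KO Zbtb46-GFP+ replicate 2 and 4 without either Id2 KO CDP array.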

How the data were processed

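Expression was measured on 15 arrays, of which 12 (2 per group) entered fits and levels. The deposited values are intensity: linear probe set signal, summarised by the authors with RMA in Affymetrix Expression Console, per the submitters' processing notes, which give no versions or settings. Log2 of the deposited intensity was taken first. Median signals were 23.81 to 24.14 on the 3 arrays left out and 100.82 to 112.10 on the 12. Replicate 1 of Batf3 KO and of WT Zbtb46-GFP+ cells held identical values at 20689 probe sets (71.7%). The number of arrays limits the precision.

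Of 28853 probe sets, 21789 had a single gene symbol in the platform annotation, 1621 several and 5443 none here. The single-symbol sets were updated through RefSeq, and the set with the highest mean signal stood for each of 19920 genes (1015 had more than 1 set). limma 3.58.1 in R 4.3.3 fitted 6 group means with 6 residual degrees of freedom (eBayes without trend, two-sided, Benjamini-Hochberg over all genes within each comparison). The code was tested on simulated data. Between the 2 Batf3 KO arrays of a stage, log2 values correlated at 0.993 (CDP) and 0.992 (Zbtb46-GFP+) across genes, and between stages at 0.967 to 0.974.

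The genes named are the 15 called genes with the largest rise and the 15 with the largest fall in the Batf3 KO step whose groups do not overlap, up to 10 called differences from WT in each direction (passing over predicted genes and those on X and Y), up to 4 called members of each list, and 12 regulators. The 28 lists held 498 entries, 465 of them measured. Members and lists were chosen with earlier results of these data known. A sum or a mean over a list is a description. Alternatives changed the arrays, scaling, offset, filter, probe set rule, spread model and blocks, and left out each array in turn.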

Additional observations from a re-analysis of the deposited data

Results flagged for a closer look

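The test of the difference of the steps itself (limma, adjusted p under 0.05) picked out 19 genes between Batf3 KO and WT. The step was smaller without Batf3, in log2, for Gpr141b (-4.71), Rasgrp3 (-3.73), Cd36 (-3.58), Gcsam (-3.57), Snx22 (-3.33), Xcr1 (-3.16), Ifi205 (-2.90), Batf3 (-2.79), Tlr3 (-2.32), BC028528 (-2.32), Fgd6 (-2.06), Ppt1 (-1.97), Fcrla (-1.82), Gatm (-1.69), Tubb2a (-1.67) and Shtn1 (-1.50). It was larger for Tnfsf8 (1.20), Cd209e (1.69) and Hpgd (2.29).

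The same test between Batf3 KO and Id2 KO picked out 9 genes. Cdh1 (-2.28), Fcrla (-2.11) and Grifin (-1.49) had the lower step without Batf3. Ptpn22 (1.36), Tbxas1 (1.57), Tlr3 (1.58), Tnfsf8 (1.61), Itga1 (1.81) and Ptgdr2 (1.82) had the higher. Tlr3, Fcrla and Tnfsf8 are in both sets, which share the Batf3 KO arrays.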

How the results depend on the processing

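Replicate numbers did not pair the arrays: residuals of same-numbered arrays correlated at -0.63 to 0.68, and CDP (1, 2) and Zbtb46-GFP+ arrays (2, 3) share only number 2 among the 12 arrays. With the replicate block on 12 arrays the counts were 1178 for the Batf3 KO step, 1682 for WT, 21 for the difference from WT and 17 for that from Id2 KO. On all 15 arrays with the replicate block they were 3, 25, 0 and 0, with 3 genes called in both steps and 0 kept. Without the block or a term for the 3 arrays on another scale they were 0, 1, 0 and 0, with 0 and 0 (131, 214, 3 and 0 at an unadjusted p under 0.05 by limma). With a term for the 3 arrays, differences from WT were 8 and from Id2 KO 1, and 1391 genes were kept. The 75th percentile set as a block gave 3486, 4828, 42 and 132, with 2905 called in both and 2592 kept. Arrays of a set had residuals correlated at 0.35 to 0.68. Quantile normalization gave 2352 for the Batf3 KO step, 36 for the difference from Id2 KO, 1969 in both and 1657 kept. Median centring and 75th-percentile centring gave 12 and 12 differences from WT, and the latter 0 from Id2 KO (575 at an unadjusted p under 0.05 by limma). Leaving out the lowest-signal genes gave 16 differences from Id2 KO, and fitting only the arrays compared gave 12 from WT and 17 from Id2 KO. The cause of these shifts was not tested. Leaving out each array gave 642 to 827 for the Batf3 KO step, 1183 to 1779 for WT, 7 to 41 and 0 to 5 for the differences, 592 to 1169 called in both and 304 to 686 kept. Of 103 named calls in the Batf3 KO step, 84 held with each array left out, 97 under all 3 scalings, 101 with the term for the 3 arrays and 0 on all 15 arrays without it. Of the 19 differences these counts were 7, 9, 8 and 0. On all 15 arrays with the replicate block these rises reversed: Wdfy4 -0.33, Fcrla -0.50, Tlr9 -0.65, Pld4 -1.52, Atf3 -0.20, Junb -0.45, Kit -0.19, Csf2ra -0.15, Ifngr1 -0.04, Tbx21 -0.08, Ctss -0.98, Ctsh -0.75, Axl -1.04, Clec9a -0.49, Itga4 -0.21, Itgb7 -0.79 and Nr4a1 -0.56. Without a block or term these did: Pld4 -0.72, Ctss -0.38, Ctsh -0.17, Axl -0.52, Clec9a -0.10 and Itgb7 -0.18. The signal background limits what low genes can show.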
